A study of Homo sapiens with 8 samples.

Results

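The 10 aldehyde dehydrogenase (ALDH) genes described here are members of the family that have been tied to stem-like cells and drug tolerance: ALDH1A1, ALDH1A2, ALDH1A3, ALDH1B1, ALDH2, ALDH3A1, ALDH3A2, ALDH3B1, ALDH7A1 and ALDH9A1. They were taken by name from a table of 32803 gene symbols, in which all 10 were present. All 10 also passed the filter on low counts that left 16221 genes for testing. Aldehyde dehydrogenases oxidise reactive aldehydes to carboxylic acids with NAD or NADP as the electron acceptor. Some members make retinoic acid from retinaldehyde, and others clear aldehydes that arise from ethanol, lipid peroxidation, membrane lipids or amino acid and polyamine breakdown. In ovarian carcinoma, high aldehyde dehydrogenase activity in a flow cytometry assay is widely used to mark cells with stem-like properties, and ALDH1A1 is the member most often linked to that activity.

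The study grew UWB1.289, a human ovarian cancer line without functional BRCA1, and UWB1.289+BRCA1, its derivative that expresses BRCA1 again, together with a PARP inhibitor-resistant derivative of each, Olres-UWB1.289 and Olres-UWB1.289+BRCA1. PARP inhibitors trap or block the enzymes that signal DNA strand breaks and are most toxic to cells without BRCA1-dependent repair. All cells were in drug-free medium when total RNA was taken. The groups were parental deficient cells at passage 29, resistant deficient cells at passage 56, parental proficient cells at passage 10 and resistant proficient cells at passage 45, with 2 libraries in each (n = 2 throughout). Resistance and passage number changed together in both backgrounds and cannot be told apart. Deficient and proficient cells also differed in passage number, at 29 against 10 for parental and 56 against 45 for resistant cells. Differences by BRCA1 state therefore cannot be told apart from passage either. Each group stands for 1 line, and the labels do not say whether a derivative is a clone or whether the 2 libraries came from separate cultures, so the p-values reflect no more than how far these libraries spread, and that spread may be technical.

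The 8 libraries held 24094821 to 34394107 counts. Levels are given in CPM, the counts of a gene scaled to a common library total. BRCA1 itself was read at 35.6 ± 0.647 CPM (SD) in parental deficient cells, at 34.7 ± 0.0847 CPM in resistant deficient cells, at 202 ± 14.4 CPM in parental proficient cells and at 2271 ± 134 CPM in resistant proficient cells. The BRCA1 level thus rose along with resistance in proficient cells, by 3.49 on the log2 scale (edgeR adjusted p = 1.06e-10). Resistance and BRCA1 level cannot be told apart in comparisons that use the resistant proficient cells. Of 10 markers of ovarian carcinoma and Mullerian epithelium, 8 stood at 1 CPM or more in every library, with a summed level of 4128 to 8249 CPM, while WT1 stayed under 1 CPM outside the resistant proficient libraries. Summed fibroblast markers ran from 4.40 to 58.0 CPM, with 3 of 5 under 1 CPM in every library. Leukocyte markers summed to 18.0 to 29.2 CPM, with MS4A1 at 0 in every library and CD3E at 0.0720 CPM or less. Others were present, and PTPRC ran from 3.49 to 13.3 CPM. Mean CD68 was lower in the proficient lines (parental 2.77, resistant 1.18 CPM) than in the deficient lines (parental 14.3, resistant 16.2 CPM). Mean CD14 reached 21.3 CPM in the resistant proficient line, against 2.47 CPM in its parental line, and was under 1 CPM in both deficient lines. Endothelial markers summed to 43.5 to 49.9 CPM in deficient and 3.73 to 8.70 CPM in proficient libraries. The part of these other markers in the results below was not tested. Fold changes over all genes followed the GC content of the transcript, with a Spearman rho across 15664 genes of 0.456 for resistance in deficient cells, 0.0824 for resistance in proficient cells, -0.440 for BRCA1 state in parental cells and -0.515 for BRCA1 state in resistant cells. Genes are not independent replicates in these correlations. Values with the GC trend of each library removed are therefore given wherever they change a call.

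Scaled to the length of their exons, most of the summed level of these 10 genes came from ALDH9A1 and ALDH7A1. In parental deficient cells ALDH9A1 stood at 34.4 CPM per kilobase of exon, ALDH7A1 at 23.0, ALDH1B1 at 14.3 and ALDH3A2 at 10.8. Among the 10 genes ALDH9A1 and ALDH7A1 led in all 4 groups, with ALDH9A1 first in 3 and ALDH7A1 first in resistant deficient cells, at 28.0 against 20.7 CPM per kilobase. ALDH18A1, a family gene outside the 10 that acts in proline synthesis, stood at 29.2 CPM per kilobase in those cells. ALDH1A1, by contrast, reached 0.293 CPM per kilobase in its highest group and never more than 0.201% of the summed level of the 10 genes. That sum was 93.1 and 91.8 CPM per kilobase in the parental deficient libraries, 92.3 and 93.9 in resistant deficient, 118 and 112 in parental proficient, and 145 and 147 in resistant proficient libraries. The deficient libraries therefore overlapped with each other, and the resistant proficient libraries lay above the parental proficient ones. Exon lengths came from a gene model other than the one behind the counts, so differences between genes on this scale are approximate.

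**Figure D1:**
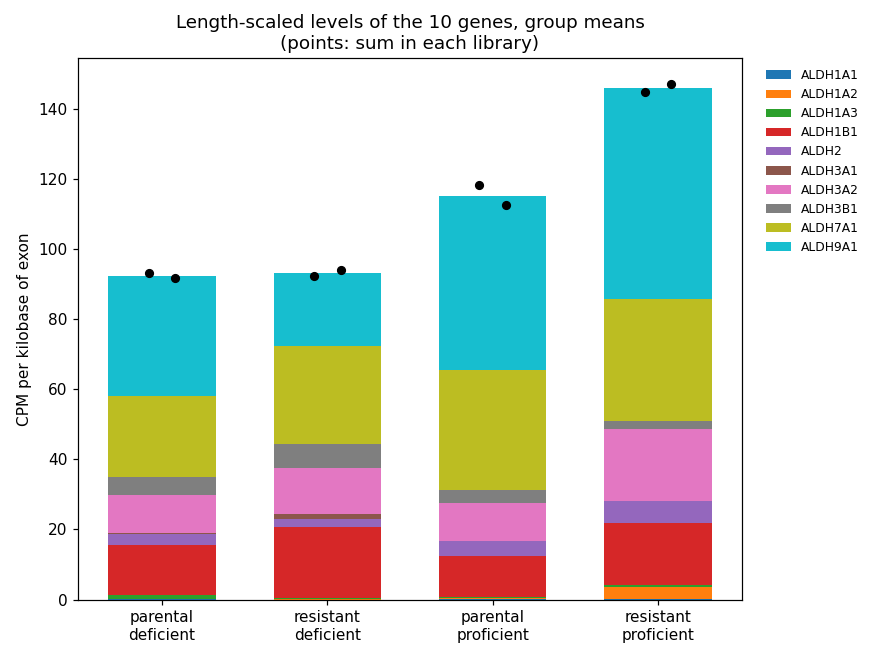
Stacked group means of the 10 genes in CPM per kilobase of exon (vertical axis) for the 4 groups (horizontal axis); each colour is 1 gene and the black points are the sums in the 2 libraries of a group. The sum lies between 91.8 and 93.9 in deficient libraries and at 145 and 147 in resistant proficient libraries, and ALDH9A1 and ALDH7A1 form the largest blocks.

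Members changed with resistance in both backgrounds, in part in opposite directions. In BRCA1-deficient cells ALDH3A1, ALDH1B1, ALDH3A2 and ALDH7A1 rose and ALDH1A3, ALDH9A1 and ALDH2 fell. In BRCA1-proficient cells 7 members rose, ALDH1A2, ALDH1A1, ALDH1A3, ALDH3A2, ALDH1B1, ALDH2 and ALDH9A1, and ALDH3B1 fell. A gene rose or fell when its edgeR p, adjusted over all genes tested, was under 0.05. In deficient cells 7 of 10 members passed in either direction, against 55.8% of all genes tested, and 4 rose, against 28.9%, while 3 fell, against 27%. In proficient cells 8 passed, against 53.7%, and 7 rose, against 25.9%, while 1 fell, against 27.8%. In bulk RNA, a change in how many cells express a gene and a change in its RNA per cell cannot be told apart. The median log2 fold change of the 10 members was 0.0050 in deficient cells, beside 0.03 over all genes, and 0.56 in proficient cells, beside -0.0017 over all genes. The libraries of the compared groups did not overlap for 10 of 10 members in deficient cells, where this held for 78.7% of all genes, and for 8 of 10 in proficient cells, where it held for 76.4%. The count of members that rose in proficient cells was 6 or 7 with any 1 library left out. The lone fall there was lost without parental proficient replicate 1 or resistant proficient replicate 2.

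**Figure D2:**
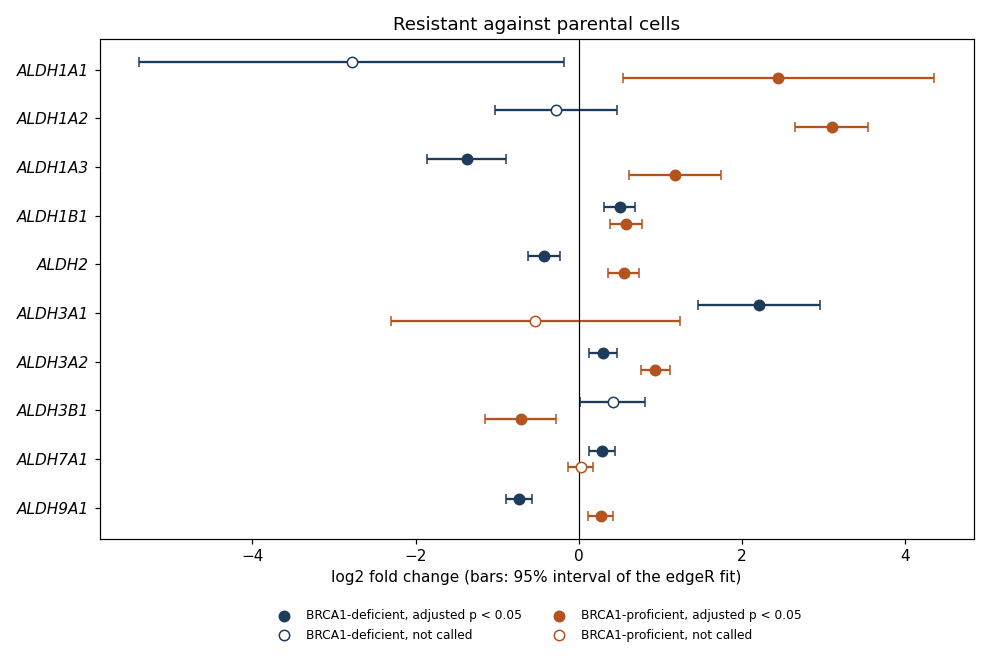
Log2 fold change of resistant against parental cells (horizontal axis) for each of the 10 genes (vertical axis), with 95% intervals of the edgeR fit; blue is the BRCA1-deficient and orange the BRCA1-proficient background, and filled points passed an adjusted p of 0.05. ALDH1A3, ALDH2 and ALDH9A1 lie on opposite sides of 0 with both points filled, and ALDH1B1 lies near 0.5 in both.

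The change with resistance itself differed between the backgrounds for 8 of 10 members by the test of that difference, against 46.7% of all genes tested. For 6 of them, ALDH1A1, ALDH1A2, ALDH1A3, ALDH2, ALDH3A2 and ALDH9A1, the change was more positive in proficient cells, as it was for 21.4% of all genes. For the 2 others, ALDH3A1 and ALDH3B1, it was more positive in deficient cells, as it was for 25.3% of all genes. ALDH1B1, an exception, had a difference of 0.08 on the log2 scale with a 95% interval of -0.19 to 0.35 (edgeR adjusted p = 0.626).

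**Figure D3:**
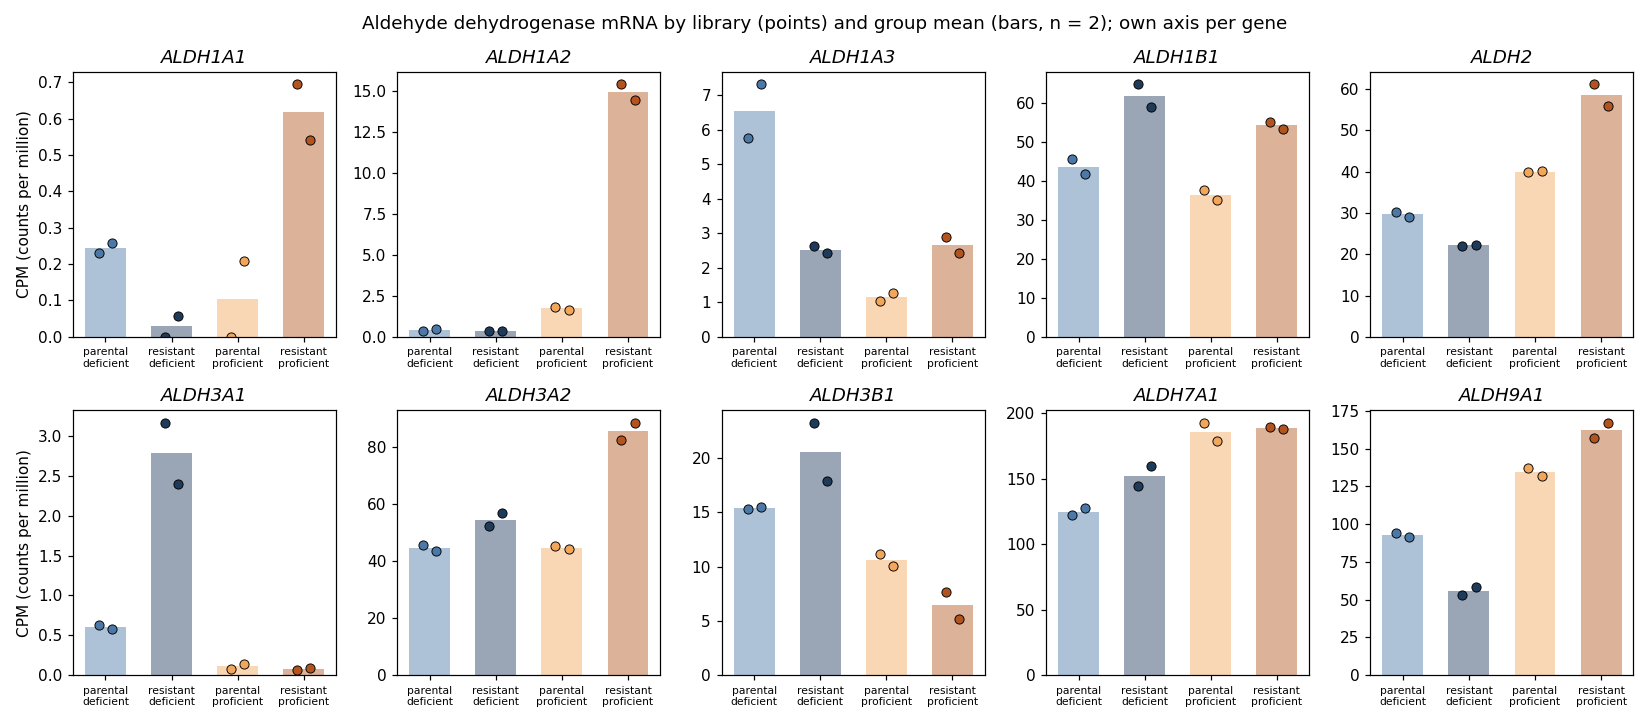
Level of each of the 10 genes in CPM (vertical axis, own scale for each gene, from 0) in the 4 groups (horizontal axis); points are libraries and bars are means of 2. ALDH1A2 stands at 14.5 and 15.4 CPM in the resistant proficient libraries and under 2 CPM elsewhere, and ALDH3A1 exceeds 2 CPM in the resistant deficient libraries alone.

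The first set of members is the retinaldehyde dehydrogenases ALDH1A1, ALDH1A2 and ALDH1A3, cytosolic enzymes that carry out the last, irreversible step of retinoic acid synthesis. In the development of the body ALDH1A2 is the main source of retinoic acid. The promoter windows of these 3 genes are shown because the genes encode enzymes of the same reaction but moved differently here. Each window runs from 250 bases before to 50 bases after a start site, 5′ to 3′ on the gene's strand, in the RefSeq table for GRCh38.p14. That table matched 8 of the 10 genes, all but ALDH2 and ALDH3A1, with 11 windows in all. For ALDH1A2 the upstream one of its 2 windows is shown. Capitals mark the searched motifs that were found.
ALDH1A1 (chr9:72953004-72953303, strand -): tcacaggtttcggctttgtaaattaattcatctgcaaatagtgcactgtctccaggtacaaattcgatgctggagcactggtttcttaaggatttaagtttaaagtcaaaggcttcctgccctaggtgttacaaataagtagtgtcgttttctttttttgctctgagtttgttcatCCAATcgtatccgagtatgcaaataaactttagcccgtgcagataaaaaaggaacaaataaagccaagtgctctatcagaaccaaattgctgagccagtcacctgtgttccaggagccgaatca
ALDH1A2 (chr15:58065662-58065961, strand -): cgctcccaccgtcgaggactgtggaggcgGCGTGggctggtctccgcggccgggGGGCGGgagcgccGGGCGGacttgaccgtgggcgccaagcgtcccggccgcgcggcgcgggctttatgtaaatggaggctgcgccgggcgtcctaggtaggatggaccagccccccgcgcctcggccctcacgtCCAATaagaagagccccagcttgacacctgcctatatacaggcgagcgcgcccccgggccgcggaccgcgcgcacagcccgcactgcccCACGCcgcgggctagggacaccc
ALDH1A3 (chr15:100879581-100879880, strand +): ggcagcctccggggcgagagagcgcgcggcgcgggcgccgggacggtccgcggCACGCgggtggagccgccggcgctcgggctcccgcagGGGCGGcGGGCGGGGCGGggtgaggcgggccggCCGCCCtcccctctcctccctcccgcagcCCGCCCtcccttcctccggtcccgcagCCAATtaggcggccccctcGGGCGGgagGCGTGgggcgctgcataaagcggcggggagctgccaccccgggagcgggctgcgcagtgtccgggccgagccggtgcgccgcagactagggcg
The ALDH1A1 window is 40.3% GC with 7 CpG dinucleotides, lower in GC than most promoters of the table, whose median is 58.7% with 14 CpG. The ALDH1A2 window is 74.0% GC with 41 CpG, and that of ALDH1A3 is 81.7% GC with 46 CpG. Motifs were searched on both strands. CCAAT was found in each of the 3, at positions -74, -62 and -71 from the start site, and in 34.6% of all 35116 windows. The GC box GGGCGG was found 2 times in ALDH1A2 and 6 times in ALDH1A3, where some copies overlap, and not in ALDH1A1. It is present in 44.95% of all windows. The xenobiotic response core GCGTG, present in 36.5% of all windows, occurred 2 times each in ALDH1A2 and ALDH1A3. The antioxidant response core TGACNNNGC (13.3% of all windows), the nuclear receptor site AGGTCA (13.8%) and TATAAA (11.5%) were found in none of the 11 windows of the members. The E-box CACGTG (7.26% of all windows) was in 2 of the 11, those of ALDH3A2 and ALDH3B1.

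ALDH1A2 (chr15:57953424-58497866, minus strand, GRCh38, GENCODE v29) had the largest range of any member at 5 CPM or more. It read 0.362 and 0.488 CPM in parental deficient libraries, 0.360 and 0.347 CPM in resistant deficient, 1.81 and 1.66 CPM in parental proficient, and 15.4 and 14.5 CPM in resistant proficient libraries. The resistant proficient libraries stood far above the rest, and the proficient libraries did not overlap with the deficient ones. The rise with resistance in proficient cells was 3.10 ± 0.20 in log2 units (SE, edgeR adjusted p = 3.30e-07), from 93 to 790 counts. In deficient cells the change was -0.27 with a 95% interval of -1.02 to 0.47 (edgeR adjusted p = 0.571), on 28 and 22 counts. The difference between these changes was 3.38 ± 0.40 (edgeR adjusted p = 5.57e-05). Between the resistant lines the proficient cells were 5.38 ± 0.25 higher on the log2 scale (edgeR adjusted p = 8.69e-09).

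ALDH1A3 (chr15:100877714-100916626, plus strand) moved in opposite directions in the 2 backgrounds. It read 5.76 and 7.32 CPM in parental deficient libraries, 2.63 and 2.43 CPM in resistant deficient, 1.05 and 1.28 CPM in parental proficient, and 2.88 and 2.42 CPM in resistant proficient libraries. Parental deficient libraries were highest and parental proficient ones lowest, and the 2 resistant lines overlapped. The gene fell by 1.37 ± 0.22 with resistance in deficient cells (SE, edgeR adjusted p = 0.000343) and rose by 1.18 ± 0.26 in proficient cells (edgeR adjusted p = 0.00246). The difference between the changes was 2.55 ± 0.34 (edgeR adjusted p = 0.000123). Parental proficient cells were lower than parental deficient cells, with a log2 difference of -2.48 ± 0.24 (edgeR adjusted p = 6.16e-06). Between the resistant lines the difference was 0.07, with a 95% interval of -0.44 to 0.59 (edgeR adjusted p = 0.792). In the GENCODE model 29.2% of the exon bases of ALDH1A3 are shared with an antisense gene on the other strand. Since the strand setting of the counting is not given, reads of the 2 genes cannot be told apart there. For other members the share with any overlapping gene was at most 7.08%.

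ALDH1A1 (chr9:72900662-73080442, minus strand), the member best known as a stem cell marker, was close to the detection limit in every library. It had 7 and 9 counts in parental deficient libraries, 0 and 2 in resistant deficient, 0 and 6 in parental proficient, and 20 and 13 in resistant proficient libraries. Its highest library, at 0.694 CPM, was resistant proficient. In proficient cells 33 counts stood against 6, a ratio of 5.59 with a 95% interval of 2.31 to 16.3 that covers counting error only, and the gene was called as higher (log2 fold change 2.45 ± 0.86, edgeR adjusted p = 0.0328). That call was lost in 6 of 16 alternatives (adjusted p 0.00636 to 0.157 over them), namely with DESeq2 (0.129) and without either parental deficient library (0.0559 and 0.0537), parental proficient replicate 1 (0.157) or either resistant proficient library (0.139 and 0.0719). All 6 parental counts lay in replicate 2, and leaving that library out gave a fitted change of 7.20. In deficient cells 2 counts stood against 16, a ratio of 0.131 (95% interval 0.0146 to 0.556), which missed the threshold (edgeR adjusted p = 0.0653, ranging from 0.0379 to 0.218 across alternative settings). It passed without a filter on low counts (0.0467) and without parental proficient replicate 1 (0.0379) or 2 (0.0415). Between the parental lines the fit gave -1.12 (edgeR adjusted p = 0.332), and -5.87 without parental proficient replicate 2 (0.0467, ranging from 0.0467 to 0.831 across alternative settings). Between the resistant lines 33 counts in proficient cells stood against 2, which is 19.5 times as many after scaling (95% interval 4.98 to 168), and this passed (edgeR adjusted p = 0.00397). Without resistant deficient replicate 2, which held both counts of its group, the fitted values were 7.17 between the resistant lines and -5.84 for resistance in deficient cells, each on the same side of the threshold as before. The difference between the resistance effects was fitted at 5.23 ± 1.45 (edgeR adjusted p = 0.0125), and at 8.33 without resistant deficient replicate 2 and 9.98 without parental proficient replicate 2.

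ALDH2 and ALDH1B1 encode mitochondrial enzymes that oxidise acetaldehyde, and ALDH2 is the principal acetaldehyde dehydrogenase of the body. ALDH2 (chr12:111766887-111817529, plus strand) read 30.3 and 29.1 CPM in parental deficient, 22.0 and 22.3 CPM in resistant deficient, 39.95 and 40.1 CPM in parental proficient, and 61.1 and 55.9 CPM in resistant proficient libraries. No 2 groups overlapped, with resistant deficient libraries lowest and resistant proficient ones highest. ALDH2 fell by 0.42 ± 0.09 with resistance in deficient cells (SE, edgeR adjusted p = 0.00208) and rose by 0.55 ± 0.09 in proficient cells (edgeR adjusted p = 0.000271). The difference was 0.97 ± 0.12 (edgeR adjusted p = 9.74e-05). Proficient cells were higher by 0.43 ± 0.09 between parental lines (edgeR adjusted p = 0.00128) and by 1.40 ± 0.09 between resistant lines (edgeR adjusted p = 1.13e-07).

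ALDH1B1 (chr9:38392664-38398661, plus strand) was the member that changed most alike in the 2 backgrounds. It read 45.5 and 41.9 CPM in parental deficient libraries and 64.8 and 58.9 CPM in resistant deficient libraries. In proficient cells it read 37.7 and 35.1 CPM in parental and 55.3 and 53.5 CPM in resistant libraries. All 4 resistant libraries lay above all 4 parental ones. The rise was 0.50 ± 0.09 in deficient cells (SE, edgeR adjusted p = 0.000576) and 0.58 ± 0.09 in proficient cells (edgeR adjusted p = 0.000205). Parental proficient cells were lower than parental deficient cells (-0.27 ± 0.09, edgeR adjusted p = 0.0214, ranging from 0.00228 to 0.223 across alternative settings). Removing the GC trend ended this call (-0.10, adjusted p = 0.223), as did leaving out parental deficient replicate 1 (0.162) or parental proficient replicate 2 (0.146). Between resistant lines the difference of -0.19 had a 95% interval of -0.38 to 0.0053 (edgeR adjusted p = 0.0730), and it passed with library totals alone (-0.21, adjusted p = 0.0416).

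The ALDH3 members act mainly on medium and long-chain aldehydes from lipids. ALDH3A1 is abundant in the cornea and is induced by xenobiotics in other tissues, ALDH3A2 is the fatty aldehyde dehydrogenase of the endoplasmic reticulum, and ALDH3B1 acts on lipid-derived aldehydes at membranes. ALDH3A1 (chr17:19737984-19748943, minus strand) read 0.625 and 0.574 CPM in parental deficient libraries and 3.17 and 2.40 CPM in resistant deficient libraries. In proficient cells it had 2 and 4 counts in parental and 2 and 2 counts in resistant libraries, all under 0.14 CPM. Resistant deficient libraries were highest by a wide margin, and the proficient groups overlapped near the detection limit. With resistance in deficient cells ALDH3A1 rose by 2.21 ± 0.34 in log2 units (SE, edgeR adjusted p = 0.000261), from 39 to 171 counts, and by 1.62 ± 0.35 with the GC trend removed. In proficient cells 4 counts stood against 6, a ratio of 0.678 with an interval of 0.141 to 2.86, so no change was detectable at this depth (edgeR adjusted p = 0.624). The difference between the resistance effects was -2.74 ± 0.90 (edgeR adjusted p = 0.0277, ranging from 0.0289 to 0.198 across alternative settings). It passed in 8 of 16 alternatives and missed in the others, among them DESeq2 (0.0736), removal of the GC trend (0.0624), and the fits without parental deficient replicate 2 (0.0635), parental proficient replicate 2 (0.198), resistant deficient replicate 1 (0.0849) or either resistant proficient library (0.0815 and 0.0623). Proficient cells were lower than deficient ones in the parental pair (-2.38 ± 0.53, edgeR adjusted p = 0.00239) and in the resistant pair (-5.12 ± 0.49, edgeR adjusted p = 2.59e-06).

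ALDH3A2 (chr17:19648136-19677598, plus strand), a neighbour of ALDH3A1 on chromosome 17, was expressed in every library. It read 45.5 and 43.6 CPM in parental deficient, 52.4 and 56.9 CPM in resistant deficient, 45.2 and 44.2 CPM in parental proficient, and 82.7 and 88.6 CPM in resistant proficient libraries. The parental lines overlapped, with a log2 difference of 0.0049 and a 95% interval of -0.17 to 0.18 (edgeR adjusted p = 0.965), and the resistant proficient libraries were highest. The rise with resistance was 0.94 ± 0.08 in proficient cells (SE, edgeR adjusted p = 2.54e-06) and 0.30 ± 0.08 in deficient cells (edgeR adjusted p = 0.00853, ranging from 2.89e-06 to 0.111 across alternative settings). The latter was 0.46 with the GC trend removed, and it was lost without parental deficient replicate 2 (0.111) and without resistant deficient replicate 2 (0.0917). The 2 changes differed by 0.64 ± 0.11 (edgeR adjusted p = 0.000850). Resistant proficient cells were higher than resistant deficient ones by 0.65 ± 0.08 (edgeR adjusted p = 1.89e-05), or by 0.39 with the GC trend removed.

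ALDH3B1 (chr11:68008578-68029282, plus strand) was the member whose values turned most on GC content, at 59.5% in its longest transcript. It read 15.3 and 15.5 CPM in parental deficient, 23.3 and 17.9 CPM in resistant deficient, 11.1 and 10.03 CPM in parental proficient, and 7.63 and 5.20 CPM in resistant proficient libraries. No groups overlapped, although both resistant lines varied widely. In proficient cells ALDH3B1 fell with resistance by 0.71 ± 0.20 (SE, edgeR adjusted p = 0.00994, ranging from 3.17e-05 to 0.103 across alternative settings), a call lost without parental proficient replicate 1 (0.0736) or resistant proficient replicate 2 (0.103). In deficient cells it stood 0.41 higher (edgeR adjusted p = 0.0720, with 0.0144 to 0.431), which turned to -0.18 with the GC trend removed (0.213). It passed in 3 alternatives, among them leaving out resistant deficient replicate 2 (0.0144) and testing every gene with a count (0.0310). The parental proficient cells were lower than the parental deficient ones (-0.54 ± 0.19, edgeR adjusted p = 0.0250, with 0.000242 to 0.679). This was 0.07 with the GC trend removed (0.667) and was lost without any of the 4 parental libraries (0.0506 to 0.138). Between the resistant lines the difference was -1.67 ± 0.19 (edgeR adjusted p = 1.22e-05), or -0.57 with the GC trend removed (0.000771). The difference of the resistance effects was -1.13 ± 0.27 (edgeR adjusted p = 0.00534), or -0.64 with the trend removed (0.00628).

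**Figure D4:**
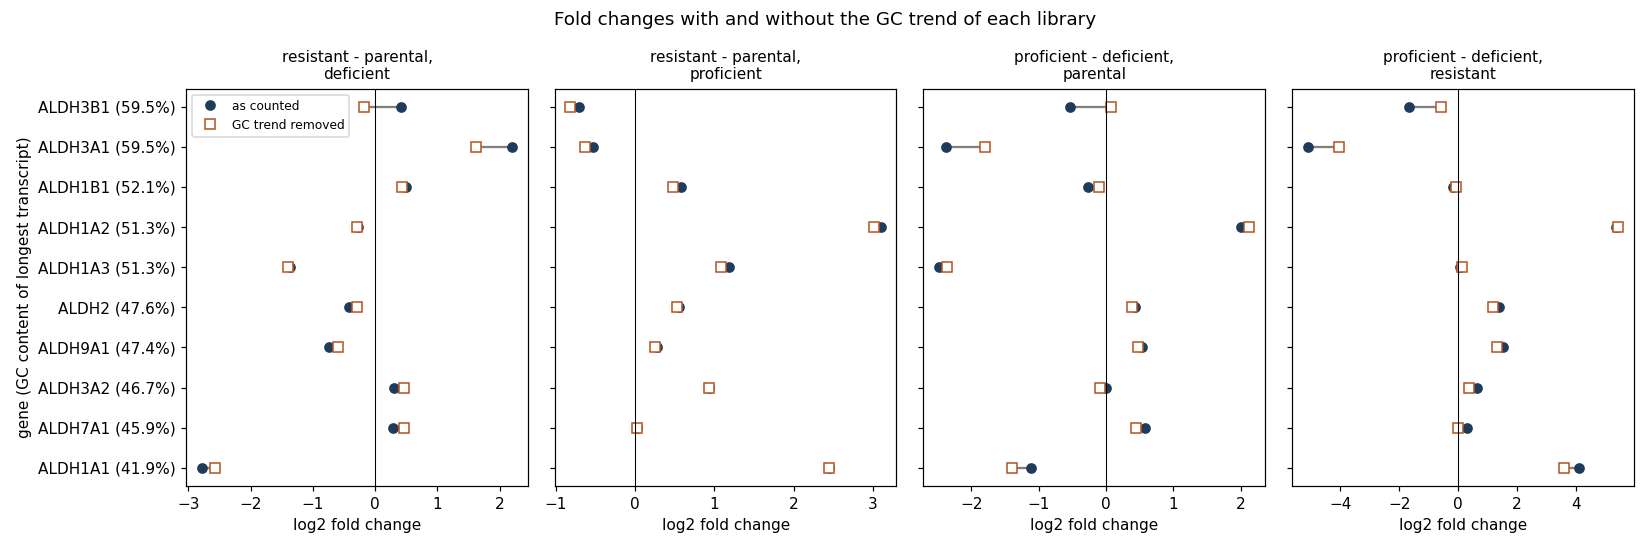
Log2 fold changes (horizontal axes) of the 10 genes, ordered by the GC content of the longest transcript (vertical axis), in the 4 pairwise comparisons; filled circles are values as counted and open squares are values with the GC trend of each library removed. ALDH3B1 crosses 0 in the first and the third panel, and the values of resistance in proficient cells stay close together.

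ALDH9A1 and ALDH7A1 carried most of the length-scaled level of the 10 genes. ALDH9A1 oxidises aminoaldehydes, among them an intermediate of carnitine synthesis, and ALDH7A1 acts in lysine breakdown and protects cells from osmotic stress. ALDH9A1 (chr1:165662216-165698863, minus strand) read 94.1 and 91.5 CPM in parental deficient, 53.3 and 58.1 CPM in resistant deficient, 137 and 132 CPM in parental proficient, and 157 and 167 CPM in resistant proficient libraries. No groups overlapped. It fell by 0.74 ± 0.07 with resistance in deficient cells (SE, edgeR adjusted p = 1.02e-05) and rose by 0.27 ± 0.07 in proficient cells (edgeR adjusted p = 0.00643, ranging from 0.000165 to 0.0624 across alternative settings). The rise was lost without parental proficient replicate 2 (0.0624). The difference of the 2 changes was 1.01 ± 0.10 (edgeR adjusted p = 1.51e-05). Proficient cells were higher by 0.54 ± 0.07 between parental lines (edgeR adjusted p = 5.25e-05) and by 1.54 ± 0.07 between resistant lines (edgeR adjusted p = 9.71e-09).

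ALDH7A1 (chr5:126531200-126595418, minus strand) was the most evenly expressed member. It read 122 and 127.5 CPM in parental deficient, 144 and 159 CPM in resistant deficient, 193 and 179 CPM in parental proficient, and 190 and 188 CPM in resistant proficient libraries. The proficient libraries overlapped with each other and all lay above the deficient ones. It rose by 0.28 ± 0.07 with resistance in deficient cells (SE, edgeR adjusted p = 0.00536, ranging from 4.35e-08 to 0.0636 across alternative settings), by 0.46 with the GC trend removed, and missed the threshold when resistant deficient replicate 2 (0.0636) or parental deficient replicate 1 (0.0541) was left out. In proficient cells the change was 0.02, with a 95% interval of -0.13 to 0.18 (edgeR adjusted p = 0.801). The difference of these changes, -0.26 ± 0.10, was near the threshold (edgeR adjusted p = 0.0507, ranging from 1.10e-05 to 0.383 across alternative settings). It passed in 3 alternatives, among them without resistant deficient replicate 1 (0.0491) and with the GC trend removed (-0.44, 1.10e-05). Proficient cells were higher between parental lines by 0.58 ± 0.07 (edgeR adjusted p = 3.37e-05). Between resistant lines they were higher by 0.31 ± 0.07 (edgeR adjusted p = 0.00182), which came to 0.01 with the GC trend removed (0.807).

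Across BRCA1 state, ALDH1A2, ALDH2, ALDH7A1 and ALDH9A1 were higher in proficient cells of both resistance states as counted, and ALDH3A1 and ALDH3B1 were lower. Between parental lines 8 members passed, against 62.4% of all genes tested, of which 4 were higher, against 32.3%, and 4 were lower, against 30.1%. Between resistant lines 8 passed, against 73.8%, of which 6 were higher, against 36.3%, and 2 were lower, against 37.5%. Libraries did not overlap for 9 members in each comparison, against 83% of all genes between parental and 86.5% between resistant lines. The median log2 difference of the members was -0.13 between parental lines (0.0025 over all genes) and 0.48 between resistant lines (-0.02 over all genes). With the GC trend removed, 2 members in place of 4 were lower between parental lines. All 4 comparisons use libraries in common in pairs, so the counts are not independent of each other.

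**Figure D5:**
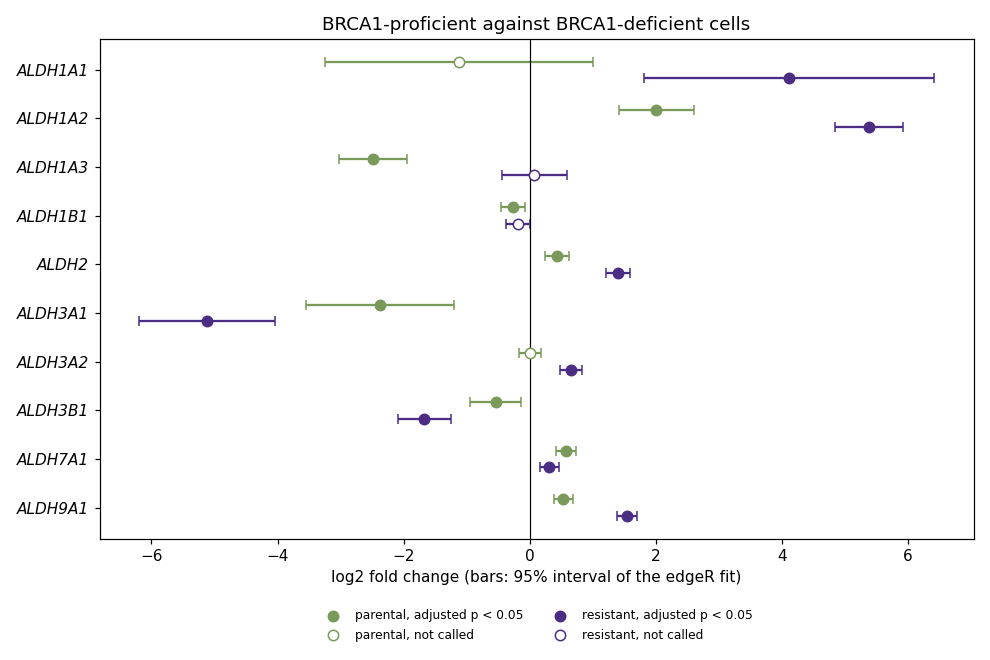
Log2 difference of BRCA1-proficient against BRCA1-deficient cells (horizontal axis) for the 10 genes (vertical axis), with 95% intervals of the edgeR fit; green is parental and purple resistant cells, and filled points passed an adjusted p of 0.05. ALDH1A2 reaches 5.38 and ALDH3A1 -5.12 in the resistant lines, and ALDH1A3 moves from -2.48 in parental to 0.07 in resistant cells.

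The order of the 4 groups differed between members. ALDH2 and ALDH9A1 shared the order resistant deficient, parental deficient, parental proficient, resistant proficient from low to high, and each step passed the test. For ALDH7A1 the deficient lines came first and the 2 proficient lines overlapped. For ALDH1A2 the 2 deficient lines, whose difference missed the threshold, came first, followed by parental proficient and resistant proficient cells. For ALDH1A3 the 2 resistant lines overlapped and lay between parental proficient and parental deficient cells. In ALDH3A1 the order ran from the proficient lines, whose difference was not detectable at this depth, through parental to resistant deficient cells. For ALDH1A1 no step between neighbouring groups passed. The step from resistant deficient to parental proficient cells was 1.67 ± 1.40 (edgeR adjusted p = 0.301), and that from parental deficient to resistant proficient cells was 1.33 ± 0.73 (edgeR adjusted p = 0.127).

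The 9 other aldehyde dehydrogenase genes, which were all measured and tested, included ALDH1L2, with the largest fall that passed among the 19 in each background. This gene, which encodes the mitochondrial formyltetrahydrofolate dehydrogenase of folate metabolism, went from 118 and 125 CPM in parental to 19.0 and 19.4 CPM in resistant deficient libraries, and from 196 and 184 to 8.19 and 8.33 CPM in proficient libraries. It fell by 2.66 ± 0.07 on the log2 scale in deficient cells (edgeR adjusted p = 2.11e-09) and fell by 4.52 ± 0.08 in proficient cells (edgeR adjusted p = 4.69e-11). ALDH5A1, which clears succinic semialdehyde, rose by 0.81 ± 0.14 in deficient and 1.03 ± 0.13 in proficient cells (edgeR adjusted p = 0.000484 and 5.22e-05). ALDH4A1 rose by 1.46 ± 0.23 in deficient cells (edgeR adjusted p = 0.000303), with values of 0.79 to 1.73 across alternative settings. Its mean in proficient cells went from 3.20 to 7.02 CPM. In proficient cells ALDH1L1 rose by 2.77 ± 0.32 and ALDH3B2 fell by 1.96 ± 0.40 (edgeR adjusted p = 2.8e-05 and 0.00151). Means moved in the same directions in deficient cells. There ALDH1L1 went from 0.556 to 1.25 CPM and ALDH3B2 from 0.294 to 0.0939 CPM, the latter on 19 and 6 counts. The difference of the changes passed for ALDH1L1 (1.61 ± 0.48, edgeR adjusted p = 0.0171), though not with DESeq2 (0.0726). It missed the threshold for ALDH4A1 and ALDH3B2. ALDH6A1, an enzyme of valine breakdown, fell by 0.70 ± 0.12 in deficient cells (edgeR adjusted p = 0.000660) and rose by 0.52 ± 0.12 in proficient cells (edgeR adjusted p = 0.00276). Of the 9 genes, 4 rose and 2 fell in deficient cells, and 4 rose and 3 fell in proficient cells, with medians of 0.49 and 0.52. Over all genes 28.9% rose and 27% fell in deficient cells, and 25.9% rose and 27.8% fell in proficient cells, so the falls were near that background.

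Genes of retinoid metabolism and retinoic acid signalling, the pathway that the ALDH1A enzymes feed, changed in both directions with resistance. Of 22 listed genes 14 were tested. In deficient cells 5 rose and 7 fell (median -0.32), and in proficient cells 1 rose and 6 fell (median -0.30), beside 28.9% up and 27% down over all genes in deficient cells and 25.9% up and 27.8% down in proficient cells. DHRS3, which returns retinaldehyde to retinol, fell by 2.19 ± 0.25 in deficient cells (edgeR adjusted p = 3.27e-05). Its value in proficient cells was 0.50 ± 0.22 (edgeR adjusted p = 0.0744). RARG, a retinoic acid receptor gene, fell by 1.82 ± 0.15 in proficient cells (edgeR adjusted p = 1.94e-06), where RXRA, a partner receptor gene, rose by 1.73 ± 0.24 (edgeR adjusted p = 0.000101). Group means moved in the same directions in deficient cells. There RARG went from 15.7 to 10.9 CPM and RXRA from 8.11 to 23.5 CPM. The fall of RARG was larger in proficient cells, where its mean went from 28.9 to 8.18 CPM. The difference of the changes was -1.29 ± 0.21 (edgeR adjusted p = 0.000485). The retinoic acid-degrading enzyme genes CYP26A1, CYP26B1 and CYP26C1 did not pass the filter on low counts, and CYP26A1 read 0.278 and 0.250 CPM in the resistant proficient libraries, where ALDH1A2 was highest. The CYP26 genes were singled out after their values were seen.

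Among 11207 other protein-coding genes at 5 CPM or more in some group, those with the most similar pattern over the 8 libraries were sought for the 3 members with the largest range among the members at 5 CPM or more in some group. Likeness was the root mean square difference of mean-centred log2 CPM, and it describes these libraries only. For ALDH1A2 they were RNF150 (0.276), ZXDA (0.327) and LRRN1 (0.328), where the median gene stood at 2.10. LRRN1, for example, went from 149 CPM in parental to 1099 CPM in resistant proficient cells. For ALDH1A3 they were PLAUR (0.213), TRNP1 (0.230) and DHRS4L2 (0.240), where the median gene stood at 1.01. For ALDH3B1 they were GPKOW (0.0999), MAZ (0.106) and CLIP2 (0.133), where the median gene stood at 0.782.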

How the data were processed

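Total RNA of 8 samples was measured by RNA-seq. The deposited values are whole-number counts of reads per gene symbol without normalisation. Per the submitters' processing notes, the authors name DESeq2 1.24.0, featureCounts, Trimmomatic 0.39, Subread 2.0.1 and the build GRCh37, without their roles; the sources used here give no annotation, strand setting or rule for multiply mapped reads. Groups came from sample titles. Counts of 8 libraries were tested in 1 fit by edgeR's quasi-likelihood method (edgeR 4.0.16, R 4.3.3), with TMM factors, filterByExpr (16221 of 32803 genes kept), 4 residual degrees of freedom and Benjamini-Hochberg adjustment over all genes tested, at a threshold of 0.05. A permutation test of 2 against 2 libraries could not go below p = 0.333. The SE is the size of the log2 fold change divided by the square root of F. CPM are relative to TMM-scaled totals. Count ratios have exact 95% intervals from a conditional binomial test, which cover counting error only. Exon lengths, coordinates and GC content came from GENCODE v29 (GRCh38), matched for all 10 members; promoters came from RefSeq (GRCh38.p14). Contrasts across both BRCA1 state and resistance served only to order the groups. Alternatives were RLE factors, library totals alone, other filters on low counts, DESeq2 1.42.0, a block for the replicate number, 2 groups alone, removal of each library's GC trend (natural spline, 5 degrees of freedom, 15664 genes), and each library left out. No replicate libraries were alike within sampling noise (chi-square per degree of freedom 4.16 to 22.8). The steps were tested on simulated data. The genes named were the 10 members, BRCA1, up to 4 genes of each list with the smallest p per comparison, and 3 genes of most similar pattern for each of 3 members. Members and lists were chosen with earlier results of these data known. The result of 1 gene of the retinoid list is not reported here.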

Additional observations from a re-analysis of the deposited data

Results flagged for a closer look

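For 8 of the 10 genes the effect of resistance differed between the BRCA1-proficient and the BRCA1-deficient background, by edgeR's test of the difference (proficient minus deficient, log2 scale). The same test passed for 46.7% of all genes, so a difference of this kind was common in these libraries. The difference was 5.23 for ALDH1A1, 3.38 for ALDH1A2, 2.55 for ALDH1A3, 0.97 for ALDH2, 0.64 for ALDH3A2 and 1.01 for ALDH9A1. It was negative for ALDH3A1 (-2.74) and ALDH3B1 (-1.13). For ALDH1A3, ALDH2 and ALDH9A1 the change passed in both backgrounds with opposite signs. ALDH1A1 rests on 0 to 20 counts per library, and ALDH3A1 on 2 to 4 counts in each proficient library.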

How the results depend on the processing

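Of 832 values of the members under the alternatives, 770 kept their direction and their side of the threshold. With the direction kept, 31 lost a call and 11 gained a call. The other 20 changed sign and were counted as such whatever their side of the threshold. Among them, 2 values of ALDH3B1 between parental lines also lost their call. The sign changes were mostly those of ALDH3A2 between parental lines, whose value near 0 became -0.0086 with RLE factors, -0.072 with library totals, -0.034 without a filter, -0.067 with the filter at 1 CPM, -0.0084 with DESeq2, -0.040 with 2 groups alone, -0.088 with the GC trend removed and -0.067 to 0.037 with single libraries left out. With the GC trend removed, alone or together with the replicate block, ALDH3B1 turned to -0.18 in both fits for resistance in deficient cells and to 0.067 and 0.064 between parental lines, ALDH3A2 between parental lines was -0.088 in both, BRCA1 for resistance in deficient cells was 0.21 in both, and AKR7A2 between resistant lines was 0.17 in both. Leaving out single libraries gave -0.032 to 0.11 for ALDH7A1 with resistance in proficient cells and -0.024 to 0.22 for ALDH1A3 between resistant lines. Counts of members called moved by over 1.5 times in these cases: lower between parental lines, 2 with the GC trend removed, also with the block, and 2 to 4 with libraries left out; lower with resistance in proficient cells, 0 to 1 with libraries left out; a more negative resistance effect in proficient cells, 1 with DESeq2 and 1 to 2 with libraries left out. The cause was not tested.

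The replicate numbers are shared by the groups, but nothing says that they mark a common culture or day. Deviations of same-numbered libraries correlated across genes at 0.121 for the deficient lines, -0.095 for the proficient lines, -0.052 for the parental lines and 0.212 for the resistant lines. With the replicate block, genes called went from 9059 to 9140 for resistance in deficient cells and from 8710 to 8858 in proficient cells, and ALDH3B1 for resistance in deficient cells passed (0.40, edgeR adjusted p = 0.0363). ALDH1A1 has no value with the filter at 1 CPM, which it did not pass. Depth limits ALDH1A1 in all groups and ALDH3A1 in proficient cells. Of 40 group levels, 35 moved by less than 1 SD with library totals alone.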

Other observations

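Of 22 listed genes of other enzymes that act on aldehydes or on their alcohols and conjugates, 15 were tested. In deficient cells 4 rose and 6 fell with resistance, where 28.9% of all genes rose and 27% fell, and in proficient cells 6 rose and 5 fell, where 25.9% rose and 27.8% fell. ESD, which completes formaldehyde oxidation with glutathione, fell by 1.09 ± 0.06 in deficient and by 0.94 ± 0.06 in proficient cells (SE, edgeR adjusted p = 2.64e-07 and 3.38e-07). AKR1B1, an aldose reductase gene, rose by 0.91 ± 0.07 and 0.79 ± 0.07 (edgeR adjusted p = 2.67e-06 and 4.28e-06). GSTA4, whose product conjugates 4-hydroxynonenal to glutathione, fell by 1.72 ± 0.20 in deficient cells (edgeR adjusted p = 3.50e-05) and rose by 1.21 ± 0.15 in proficient cells (edgeR adjusted p = 5.07e-05), with a difference of 2.93 ± 0.25 (edgeR adjusted p = 5.11e-06).

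Of 15 stem cell markers often read beside aldehyde dehydrogenase activity, 13 were tested, and 4 rose and 5 fell with resistance in deficient cells, beside 5 and 6 in proficient cells. The shares over all genes are those given above, and the 4 that rose are near that share. CD44, a hyaluronan receptor gene, read 175 and 177 CPM in parental and 76.4 and 81.1 CPM in resistant deficient libraries, a fall of 1.16 ± 0.07 (edgeR adjusted p = 3.74e-07). Its mean in proficient cells went from 24.1 to 18.9 CPM, and the 2 changes differed by 0.81 ± 0.10 (edgeR adjusted p = 9.3e-05). Between parental lines CD44 was lower in proficient cells, by -2.87 ± 0.08 (edgeR adjusted p = 5.3e-10). SOX2, a pluripotency factor gene, rose by 1.04 ± 0.12 in deficient and 0.89 ± 0.12 in proficient cells (edgeR adjusted p = 4.03e-05 and 8.52e-05). MYC rose by 0.78 ± 0.09 in deficient cells and fell by 1.37 ± 0.10 in proficient cells (edgeR adjusted p = 4.33e-05 and 6.06e-07). LGR5 rose by 3.31 ± 0.30 in deficient cells (edgeR adjusted p = 6.75e-06). Its mean there went from 0.544 to 5.39 CPM, and in proficient cells from 0.13 to 1.09 CPM. In proficient cells KLF4 fell by 2.02 ± 0.17 and POU5F1 rose by 1.25 ± 0.17 (edgeR adjusted p = 1.87e-06 and 7.30e-05). Means in deficient cells went from 12.8 to 13.9 CPM for KLF4 and from 2.37 to 3.55 CPM for POU5F1. CD24 was listed at 0 in all 8 libraries, and it was singled out after its values were seen. The annotation and the rule for multiply mapped reads are not given, so this 0 does not show that the gene was silent.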
